A study of Gallus gallus with 2 samples.

Results

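The chromosomes described here are 24 of the 36 assembled chicken chromosomes on which read pairs were placed: chr3, chr5, chr6 and chr8 to chr28. They were taken by name, and every read pair with both mates on one of them and a mapping quality of 30 or more for each mate was counted. They fall into 18 microchromosomes (chr11 to chr28), 4 chromosomes of intermediate length (chr6 and chr8 to chr10) and 2 macrochromosomes (chr3 and chr5). Lengths, taken as the largest position seen in galGal5, ranged over 0.643 Mb for chr16, 20.2 Mb for chr11, 35.5 Mb for chr6 and 111 Mb for chr3.

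The pairs came from capture Hi-C (CHi-C) of whole hindlimb buds and of whole forelimb buds, both from wild type White Leghorn chick embryos at Hamburger–Hamilton stage 20, the stage at which both limb buds are small outgrowths of mesenchyme under an ectoderm. Hi-C joins pieces of DNA that lay close together in fixed nuclei, and sequencing both ends of each joined molecule gives a pair of positions that were in contact. The capture probes were directed at the HoxD region of chr7, so the pairs on the 24 chromosomes are those that came through the enrichment without being its target. There was 1 library per limb bud and no replicate, so hindlimb buds and forelimb buds are compared as 2 libraries, and no test between them was possible. Every interval (95%) and standard error (SE) given covers counting error only, and no spread between embryos or libraries. Reads amplified by PCR without molecular identifiers need not be independent molecules, so even the counting error may be understated.

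Bird genomes combine a few long macrochromosomes with many short microchromosomes, which are rich in genes and in GC and are usually found near the centre of the nucleus. In any chromosome, the chance that 2 positions touch falls as the distance between them grows, and the slope of that fall on log axes is a summary of how the chromatin fibre is folded over that range of distances. Loops and topologically associating domains shape the curve below about a megabase, and compartments and the overall form of the chromosome shape it above.

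The hindlimb library held 8009294 pairs within the 24 chromosomes and the forelimb library held 6917851. These were 34.3% of the hindlimb pairs and 33.0% of the forelimb pairs that lay within any one chromosome. Read mates numbered 18.5 per kb of chr16 and 38.1 per kb of chr25 in the hindlimb library, and 15.4 and 32.9 per kb in the forelimb library, below the other 22 chromosomes, the highest of which had 73.8 per kb in the hindlimb library and 63.9 per kb in the forelimb library (chr24). At least 1 mate was seen in 79.7% of the 5-kb bins of chr25 and in 83.7% of those of chr16, against 98.5% of those of chr3. Values of chr16 and chr25 therefore rest on few pairs and on the least filled sequence. chr16 carries the chicken major histocompatibility complex and ribosomal RNA genes, and its 1929 hindlimb pairs and 1549 forelimb pairs were too few and its length too short for slopes from 100 kb to 1 Mb.

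The share of a chromosome's mates whose partner lay on the same chromosome, the cis share, was lower in microchromosomes than in macrochromosomes. On chr11, the longest microchromosome, it was 55.1% in hindlimb buds and 54.2% in forelimb buds, and on chr28 it was 54.4% in hindlimb buds and 54.2% in forelimb buds. The 2 shortest chromosomes stood below all others, with 46.1% in hindlimb buds and 46.2% in forelimb buds on chr25 and 32.4% in hindlimb buds and 31.4% in forelimb buds on chr16. Among the chromosomes of intermediate length it was 54.2% in hindlimb buds and 53.3% in forelimb buds on chr10, the shortest of them, and 59.0% in hindlimb buds and 58.4% in forelimb buds on chr6, the longest. On the macrochromosomes it was 63.1% in hindlimb buds and 62.5% in forelimb buds for chr5 and 67.7% in hindlimb buds and 67.3% in forelimb buds for chr3. The difference of the median microchromosome from the median of the 2 macrochromosomes was -12.1 percentage points in hindlimb buds and -11.9 points in forelimb buds.

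The fall of the cis share with length was not even. Between chr3 and chr10 it dropped with every step down in length, whereas chr27 and chr28, of 5.64 Mb and 4.97 Mb, had about the share of chr10, of 20.4 Mb. Across the 24 chromosomes the cis share and the log10 length had a Pearson r of 0.91 and a Spearman rho of 0.78 in hindlimb buds, and in forelimb buds r was 0.89 and rho 0.72. Such correlations are a description, since the chromosomes of 1 library share its depth and its preparation. Without the 2 chromosomes farthest from the median length, chr3 and chr16, r was 0.82 in hindlimb buds and 0.78 in forelimb buds. A second measure was the number of contacts with the other 23 chromosomes over the number that random pairing of mates would give. It ranged from 0.20 on chr3 to 0.52 on chr16 in hindlimb buds and from 0.20 to 0.54 in forelimb buds on the same chromosomes. Unlike the cis share, it left out partners elsewhere, such as chr1, chr2, chr4, chr7 and chrZ. Partners on the other 23 chromosomes made up 12.1% of mates on chr3 and 25.4% on chr28 in hindlimb buds, and 11.8% and 25.2% in forelimb buds. In contacts within this set, of which 18 are microchromosomes, shorter chromosomes were nearer to random. Here r was -0.96 and rho -0.97 in hindlimb buds, and r was -0.95 and rho -0.97 in forelimb buds, over 24 chromosomes.

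The cis share was higher in hindlimb buds on 22 of the 24 chromosomes, by a median of 0.42 percentage points. Of the other chromosomes with at least 1000 pairs in each library, it was also higher on chr1, chr2, chr4, chr7, chr33, chrZ and chrLGE64. Among these others it was lower only on chrW, so the direction was not particular to the 24. The 95% interval of the difference lay above 0 on 16 of the 24 chromosomes, and over all 32 chromosomes with at least 1000 pairs in each library the same was true of 62.5%. Over all 24 chromosomes the cis share was 58.4% in hindlimb buds and 57.9% in forelimb buds in lane 1 of the sequencing, 58.7% in hindlimb buds and 58.2% in forelimb buds in lane 2, 58.9% in hindlimb buds and 58.4% in forelimb buds in lane 3, and 59.1% in hindlimb buds and 58.7% in forelimb buds in lane 4. It was higher in hindlimb buds within each of the 4 lanes, although the lanes differed among themselves by more than the limb buds did. The captured region moved with the limb difference. Mates whose partner lay in the captured part of chr7 made up 3.93% (chr28) to 6.50% (chr11) of a chromosome's mates in hindlimb buds and 4.35% (chr28) to 7.47% (chr11) in forelimb buds, and their share was lower in hindlimb buds on 24 of 24 chromosomes. When pairs with a mate in that region were left out, hindlimb buds were higher on 13 of 24 chromosomes and the median difference was 0.020 points. On chr3 it was then -0.10 points (interval -0.16 to -0.04) and on chr10 it was 0.46 points (0.31 to 0.62). The interval lay above 0 on 5 chromosomes and below 0 on 2. Partners in the captured region were counted for the 24 chromosomes only, so whether these counts are particular to them was not tested.

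**Figure D1:**
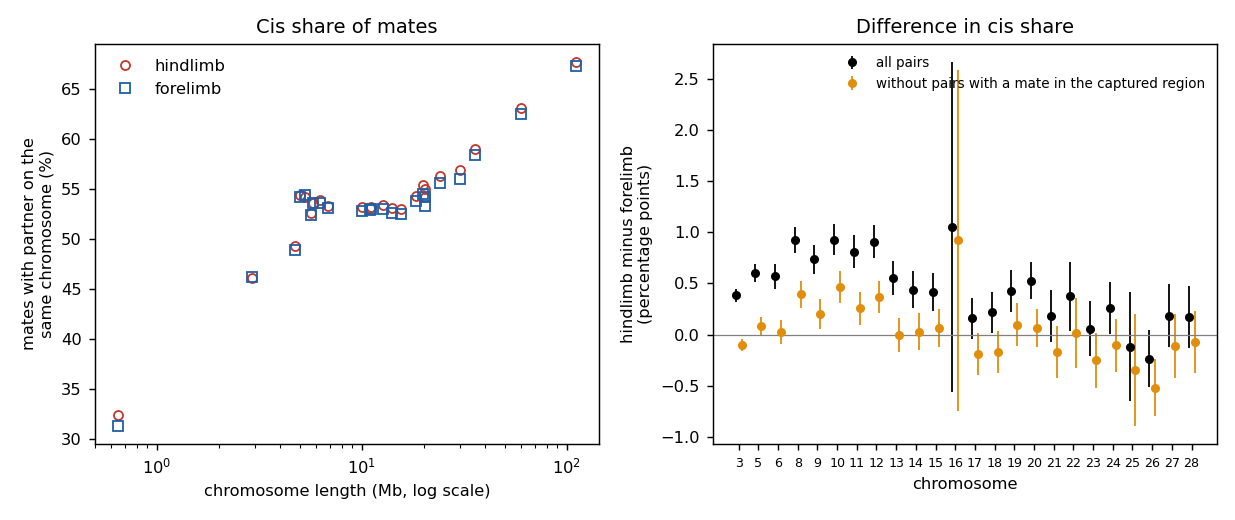
Left, the percentage of each chromosome's mates whose partner lay on the same chromosome against chromosome length in Mb on a log scale, with circles for hindlimb buds and squares for forelimb buds. Right, the difference of hindlimb minus forelimb in percentage points for each of the 24 chromosomes, with 95% counting intervals, for all pairs (black) and without pairs that have a mate in the captured region of chr7 (orange). Black points lie above 0 on 22 chromosomes and orange points on 13.

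Contact density was then taken as the number of pairs per 1000000 pairs between the 24 chromosomes and per square megabase of possible position pairs, in 10 distance bins per factor of 10. At 10 kb (the bin that starts there), the median microchromosome had a density of 9886 in hindlimb buds and 9377 in forelimb buds, and the mean of the 2 macrochromosomes was 7205 in hindlimb buds and 6660 in forelimb buds. At 100 kb the microchromosome median was 2919 in hindlimb buds and 2849 in forelimb buds, against 2007 in hindlimb buds and 1967 in forelimb buds for macrochromosomes. At 1 Mb the classes were close, with a median of 203 in hindlimb buds and 212 in forelimb buds over 17 microchromosomes, against 190.1 in hindlimb buds and 199.7 in forelimb buds for macrochromosomes. On chr28 the density was 3621 in hindlimb buds and 3739 in forelimb buds at 100 kb, and 160.5 in hindlimb buds and 157.5 in forelimb buds at 1 Mb. On chr3 it was 1920 in hindlimb buds and 1906 in forelimb buds at 100 kb, and 198 in hindlimb buds and 211 in forelimb buds at 1 Mb. The median microchromosome was thus denser in contacts at 10 and 100 kb, and most of that excess was gone at 1 Mb. At 100 kb chr16 and chr25 lay below both macrochromosomes. There chr16 had 904 in hindlimb buds and 792 in forelimb buds, and chr25 had 1691 in hindlimb buds and 1658 in forelimb buds. At 1 Mb the lowest density was that of chr25, 120.4 in hindlimb buds and 117.7 in forelimb buds. The number of mates moved with the short-range excess: in hindlimb buds its median was 65.8 per kb on microchromosomes and 56.0 per kb on macrochromosomes, and in forelimb buds it was 56.8 per kb on microchromosomes and 49.1 per kb on macrochromosomes.

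Contacts were then set relative to each chromosome's own contacts with the others of the 24 chromosomes. Mates per kb cancel in this ratio only if pairs rise with the product of the mates at both positions, which was not tested. In this ratio the order of the medians was turned round at all of these distances. At 10 kb the median microchromosome had 2824 times the density of its contacts with other chromosomes in hindlimb buds and 2660 times in forelimb buds, against 3919 times in hindlimb buds and 3592 times in forelimb buds on macrochromosomes. At 1 Mb the microchromosome median was 55.2 times in hindlimb buds and 56.9 times in forelimb buds, against 104 times in hindlimb buds and 108 times in forelimb buds on macrochromosomes. The lowest value at 1 Mb was that of chr28, 39.5 times in hindlimb buds and 39.3 times in forelimb buds, whereas chr3 had 114 times in hindlimb buds and 119 times in forelimb buds. The macrochromosomes thus stood out more than the median microchromosome from their own background of contacts between chromosomes, which was itself lower on them. The sparse chr16 and chr25 went the other way at 10 kb. There chr16 had 9141 times in hindlimb buds and 11775 times in forelimb buds, and chr25 had 5097 times in hindlimb buds and 5454 times in forelimb buds.

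The curve had a like form in the 3 size classes and in both libraries up to the bin centred on 1413 kb. That bin is the last with a local slope for microchromosomes. In the bins centred on 22.4 to 89.1 kb the local slope, over 3 neighbouring bins, lay between -0.60 and -0.52 in hindlimb buds and between -0.58 and -0.50 in forelimb buds. It was steepest in the bin centred on 1122 kb, where it was -1.66 in hindlimb buds and -1.66 in forelimb buds on microchromosomes, -1.59 in hindlimb buds and -1.59 in forelimb buds on chromosomes of intermediate length, and -1.60 in hindlimb buds and -1.59 in forelimb buds on macrochromosomes. Beyond that distance the curves of intermediate chromosomes and macrochromosomes flattened into a shoulder. The shallowest slope on macrochromosomes was -0.22 in hindlimb buds and -0.26 in forelimb buds, in the bin centred on 8913 kb, and the intermediate chromosomes reached -0.22 in hindlimb buds, centred on 7079 kb, and -0.20 in forelimb buds, centred on 8913 kb.

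A flattening between 4 and 10 Mb was present in each of the 12 chromosomes with a slope over that range. On the shortest of them, such as chr15 (12.7 Mb), these distances reach over most of the chromosome. On chr11 the slope between 1 and 4 Mb was -1.39 in hindlimb buds and -1.41 in forelimb buds, whereas between 4 and 10 Mb it was -0.28 ± 0.025 (SE) in hindlimb buds and -0.37 ± 0.027 in forelimb buds. On chr3 it was -1.39 in hindlimb buds and -1.42 in forelimb buds between 1 and 4 Mb, and -0.36 ± 0.009 in hindlimb buds and -0.38 ± 0.010 in forelimb buds between 4 and 10 Mb. Over the 12 chromosomes the slope from 4 to 10 Mb ranged from -0.50 (chr10) to -0.069 (chr12) in hindlimb buds and from -0.47 (chr10) to -0.016 (chr12) in forelimb buds. The shallowest slope of the same 12 chromosomes between 1 and 4 Mb was that of chr9, -1.198 in hindlimb buds and -1.193 in forelimb buds, so the 2 ranges did not overlap. Over all 20 chromosomes with a slope from 1 to 4 Mb, it ran from -1.43 (chr14) to -0.71 (chr26) in hindlimb buds. In forelimb buds it ran from -1.45 (chr14) to -0.73 (chr23). Its r with log10 length was -0.57 in hindlimb buds and -0.54 in forelimb buds. On the shallowest, chr26 (5.29 Mb) and chr23 (5.78 Mb), distances up to 4 Mb span most of the chromosome. Past the shoulder the fall resumed on the 3 chromosomes long enough for a slope there. Between 12.6 and 31.6 Mb it was -1.07 in hindlimb buds and -1.08 in forelimb buds on chr3, and -1.05 in hindlimb buds and -1.05 in forelimb buds on chr5. On chr6 it was -0.999 in hindlimb buds and -1.01 in forelimb buds.

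**Figure D2:**
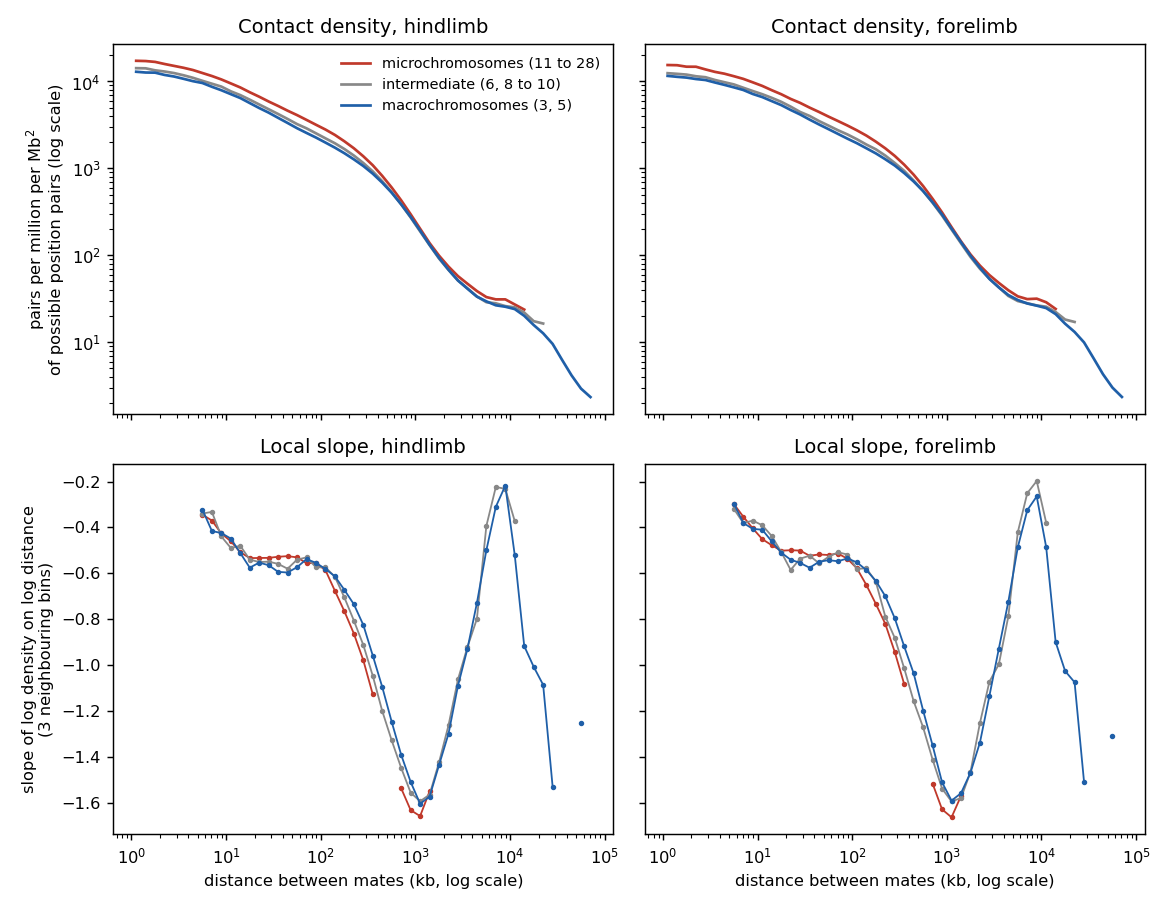
Top, contact density (pairs per 1000000 pairs per square megabase of possible position pairs, log scale) against the distance between mates in kb (log scale) for microchromosomes, intermediate chromosomes and macrochromosomes, hindlimb buds at left and forelimb buds at right. Bottom, the local slope of the same curves over 3 neighbouring bins, left out where the number of chromosomes changes. Local slopes of microchromosomes end in the bin centred on 1413 kb. All curves are steepest at 1122 kb, and in the bin centred on 8913 kb those of intermediate chromosomes (-0.23 in hindlimb buds and -0.20 in forelimb buds) and macrochromosomes (-0.22 in hindlimb buds and -0.26 in forelimb buds) are nearly flat.

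Between 100 kb and 1 Mb, the range over which every chromosome of at least 2 Mb gave a slope, the decay was steeper on short chromosomes. The median of 17 microchromosomes was -1.09 in hindlimb buds (range -1.32 to -0.93) and -1.05 in forelimb buds (range -1.29 to -0.90). The 4 intermediate chromosomes had medians of -1.01 in hindlimb buds and -0.98 in forelimb buds, and the 2 macrochromosomes had medians of -0.95 in hindlimb buds and -0.91 in forelimb buds. The steepest slope was that of chr28, -1.32 ± 0.008 (SE) in hindlimb buds and -1.29 ± 0.009 in forelimb buds. It was followed by chr27 with -1.22 ± 0.008 in hindlimb buds and -1.18 ± 0.009 in forelimb buds. The shallowest was that of chr3, -0.902 ± 0.002 in hindlimb buds and -0.865 ± 0.002 in forelimb buds. In both libraries the next shallowest was chr25, a microchromosome of 2.91 Mb, with -0.93 ± 0.014 in hindlimb buds and -0.90 ± 0.015 in forelimb buds. chr25 thus lay at the other end of the range from chr28, the next but one in length.

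Slope and log10 length had a Pearson r of 0.66 and a Spearman rho of 0.72 in hindlimb buds over 23 chromosomes, and in forelimb buds r was 0.66 and rho 0.70. Without chr3 and chr5, which are both macrochromosomes and the 2 farthest from the median length, r was 0.57 in hindlimb buds and 0.56 in forelimb buds. Without chr25 alone it was 0.87 in hindlimb buds and 0.86 in forelimb buds, a repeat added after the value of chr25 was seen. The number of mates per kb moved with the slope as well (r = -0.57 in hindlimb buds and -0.54 in forelimb buds). When possible pairs were weighted by the mates in each 5-kb bin, the microchromosome median was -1.07 in hindlimb buds and -1.03 in forelimb buds, against -0.94 in hindlimb buds and -0.90 in forelimb buds for macrochromosomes, and r with log10 length was 0.53 in hindlimb buds and 0.53 in forelimb buds.

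**Figure D3:**
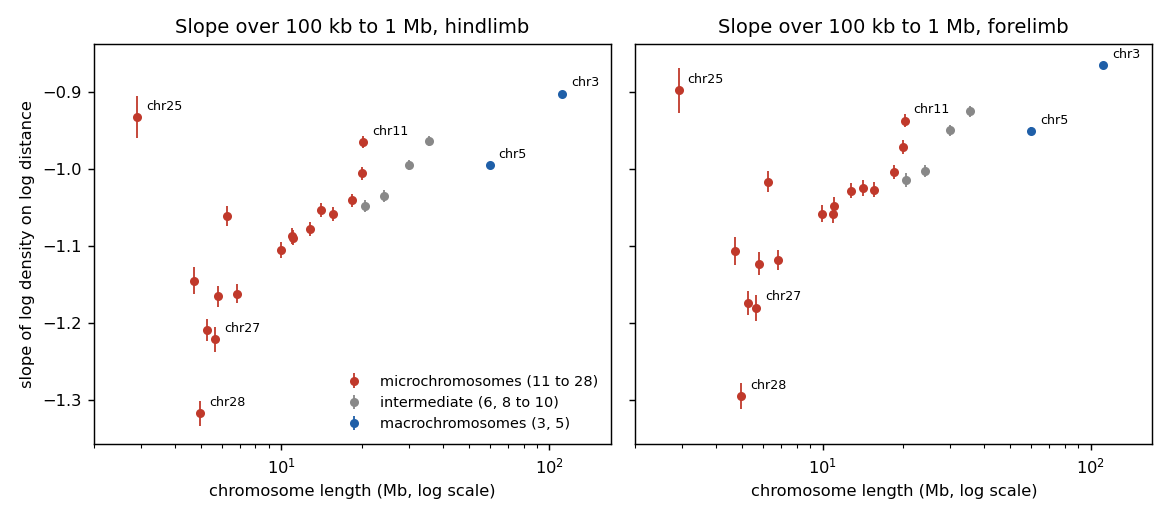
Slope of log contact density on log distance between 100 kb and 1 Mb against chromosome length in Mb (log scale) for the 23 chromosomes of at least 2 Mb, hindlimb buds at left and forelimb buds at right, with 95% counting intervals. chr28 is the steepest at -1.32 in hindlimb buds and -1.29 in forelimb buds, chr3 the shallowest at -0.902 in hindlimb buds and -0.865 in forelimb buds, and chr25 lies apart from the other short chromosomes.

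The relation with length was different at other distances. Between 10 and 100 kb the slope ranged only from -0.63 (chr25) to -0.49 (chr21) in hindlimb buds and from -0.66 (chr25) to -0.46 (chr26) in forelimb buds. There its r with log10 length was 0.067 in hindlimb buds and 0.14 in forelimb buds, while its r with the number of mates per kb was 0.88 in hindlimb buds and 0.78 in forelimb buds. Between 1 and 10 Mb, on 12 chromosomes, the sign was turned round, with r of -0.49 in hindlimb buds and -0.48 in forelimb buds. The shorter chromosomes thus decayed less over that range. Distances up to 10 Mb span most of chr15 (12.7 Mb) but little of chr3 (111 Mb), so the range covers unlike shares of their lengths.

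Slopes were also taken within windows of 5 Mb, so that each fit had the same possible pairs whatever the length of the chromosome. The 27 windows on microchromosomes had a median slope of -1.07 in hindlimb buds and -1.04 in forelimb buds, against -0.93 in hindlimb buds and -0.89 in forelimb buds in the 33 windows on macrochromosomes. No window came from chr16, chr22, chr25 or chr28, which are shorter than 5 Mb. The steepest chromosome, chr28, and the shallow chr25 were thus left out. Most microchromosome windows were the first or the last complete window of their chromosome. The 4 such windows of macrochromosomes had medians of -0.95 in hindlimb buds and -0.93 in forelimb buds. A last complete window need not reach the chromosome end, since chr5:50000001-55000000 is one of these 4 and chr5 is 59.8 Mb long. Of the microchromosome windows, 24 of 27 were steeper than the macrochromosome median in each library. Of the macrochromosome windows, 3 of 33 in hindlimb buds and 2 of 33 in forelimb buds were steeper than the microchromosome median. The ranges overlapped, since 30 of 33 macrochromosome windows lay within the range of the microchromosome windows. The shallowest window of the microchromosomes, chr11:10000001-15000000, had a slope of -0.82 in hindlimb buds and -0.80 in forelimb buds, and the steepest window of the macrochromosomes, chr5:20000001-25000000, had -1.11 in hindlimb buds and -1.06 in forelimb buds. That chr11 window also held the fewest mates among microchromosome windows, 50.8 per kb in hindlimb buds and 44.8 per kb in forelimb buds. Over all windows the slope moved with the mates per kb (Spearman rho -0.54 in hindlimb buds and -0.51 in forelimb buds). In hindlimb buds the median was 66.0 mates per kb in microchromosome windows and 55.6 in macrochromosome windows. In forelimb buds it was 56.9 in microchromosome windows and 48.2 in macrochromosome windows. Within chr3 alone the windows spanned -1.05 at chr3:15000001-20000000 to -0.77 at chr3:70000001-75000000 in hindlimb buds, and -1.03 to -0.76 at the same windows in forelimb buds. The largest SE of any window was 0.011 in both libraries, so these differences along 1 chromosome exceed the counting error. Windows kept their order between the libraries, with Spearman rho of 0.98 over the 27 microchromosome windows and 0.97 over the 33 macrochromosome windows.

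On short chromosomes, contacts at 90 to 100% of the chromosome length were denser than those at 70 to 80% of it. Values are times the level of contacts of the whole chromosome with the others of the 24 chromosomes, with possible pairs weighted by mates. At 70 to 80% of the chromosome length the median microchromosome of at least 2 Mb had 10.6 times in hindlimb buds and 10.3 times in forelimb buds. At 90 to 100% of the length, where the pair joins the 2 ends, the medians were 18.4 times in hindlimb buds and 17.4 times in forelimb buds. The value at 90 to 100% was above that at 70 to 80% on 17 of 17 such microchromosomes in hindlimb buds and on 16 of 17 in forelimb buds. On the 4 intermediate chromosomes it was above on 3 in each library, and on chr10 it was 20.7 times in hindlimb buds and 21.0 times in forelimb buds, against 8.15 times in hindlimb buds and 8.36 times in forelimb buds at 70 to 80%. The exception was chr8, named for this, with 3.75 times in hindlimb buds and 4.29 times in forelimb buds at 90 to 100%, against 6.24 times in hindlimb buds and 6.22 times in forelimb buds at 70 to 80%. On the 2 macrochromosomes the values at both distances were close. For chr5 they were 2.29 times in hindlimb buds and 2.23 times in forelimb buds at 90 to 100%, against 2.29 times in hindlimb buds and 2.31 times in forelimb buds at 70 to 80%. For chr3 they were 1.23 times in hindlimb buds and 1.16 times in forelimb buds at 90 to 100%, against 1.2 times in hindlimb buds and 1.18 times in forelimb buds at 70 to 80%. Contacts between its ends were thus little above the level of contacts of the whole chromosome with the others. Contacts of the ends alone with other chromosomes were not counted. Without the weighting by mates, chr3 had 1.61 times in hindlimb buds and 1.51 times in forelimb buds at 90 to 100%, against 1.29 times in hindlimb buds and 1.27 times in forelimb buds at 70 to 80%. The counts of chromosomes given above were taken with the weighting only, and how far they depend on it was not tested. Mates in the 2 end spans of a chromosome were 0.683 (chr17) to 1.29 (chr11) times as dense as elsewhere on it in hindlimb buds, and 0.683 (chr17) to 1.28 (chr11) times in forelimb buds. The counts behind the 90 to 100% values ran from 42 pairs (chr27) to 1240 pairs (chr11) on microchromosomes in hindlimb buds, and from 23 (chr27) to 1045 (chr11) in forelimb buds.

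**Figure D4:**
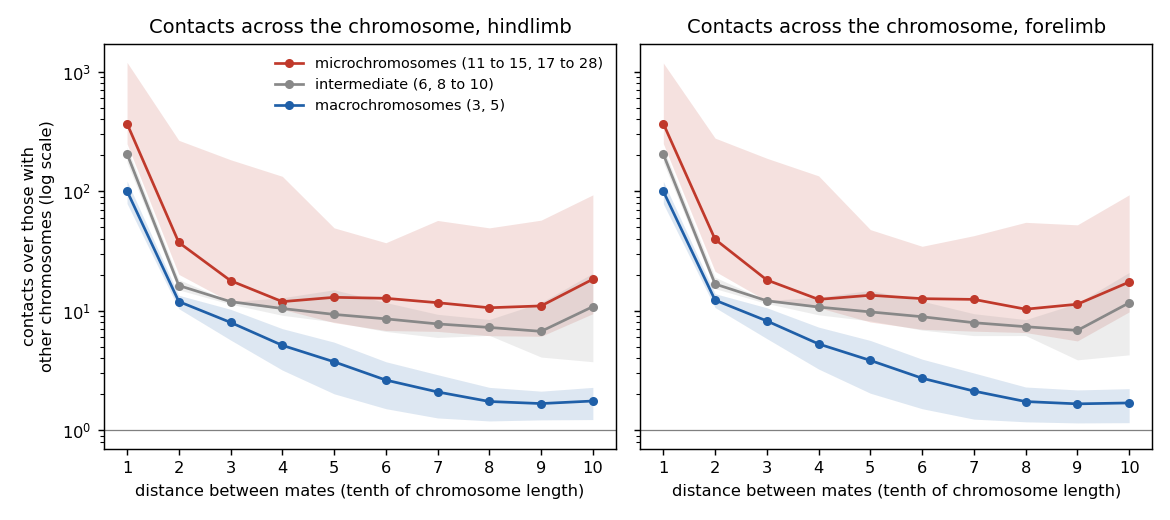
Contact density over that of the whole chromosome with the others of the 24 chromosomes (log scale, possible pairs weighted by mates) against the distance as a percentage of chromosome length. Steps of 10% are numbered 1 to 10, with hindlimb buds at left and forelimb buds at right. Lines are medians and shaded areas the full range over 17 microchromosomes of at least 2 Mb, 4 intermediate chromosomes and 2 macrochromosomes. At the last step the microchromosome median is 18.4 in hindlimb buds and 17.4 in forelimb buds, while chr3, at the lower edge of the macrochromosomes, is at 1.23 in hindlimb buds and 1.16 in forelimb buds.

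Hindlimb and forelimb curves parted at both short and long distances. Of the pairs within the 24 chromosomes that lay at least 1 kb apart, 6.14% were between 1 and 10 kb in hindlimb buds and 5.55% in forelimb buds, a log2 ratio of 0.15 (interval 0.14 to 0.15). Between 10 and 100 kb the shares were 21.8% in hindlimb buds and 20.8% in forelimb buds (0.066, interval 0.063 to 0.068). From 100 kb to 1 Mb they were 41.8% in hindlimb buds and 42.3% in forelimb buds (-0.018, interval -0.020 to -0.016). Between 1 and 10 Mb they were 20.4% in hindlimb buds and 21.1% in forelimb buds (-0.052, interval -0.054 to -0.049), and from 10 Mb upwards 9.90% in hindlimb buds and 10.2% in forelimb buds (-0.042, interval -0.047 to -0.038). Hindlimb buds thus had relatively more contacts at short range and fewer at long range. The ratio first fell through 0 at 234 kb and was lowest, at -0.078, between 1259 and 1585 kb. The place of the lowest ratio was not stable. It lay between 794 and 1000 kb in sequencing lanes 2 and 3 and on microchromosomes summed. On intermediate chromosomes summed it lay between 31623 and 39811 kb.

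The same departure was seen in each of 4 sequencing lanes, with log2 ratios of 0.065 to 0.068 for 10 to 100 kb, -0.055 to -0.049 for 1 to 10 Mb, and a crossing at 224 to 240 kb. Lanes are repeat readings of the same 2 libraries, so they bear on sequencing and not on the embryos. Pairs whose mates lay on the same strand, an orientation that an uncut or self-joined fragment does not give, had log2 ratios of 0.066 for 10 to 100 kb and -0.052 for 1 to 10 Mb. Such pairs were 50.14% of those between 1 and 10 kb in hindlimb buds and 50.04% in forelimb buds.

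By chromosome, the share of pairs between 10 and 100 kb was higher in hindlimb buds with an interval above 0 on 22 of 24 chromosomes (all but chr16 and chr25), and so it was on 84.4% of the 32 chromosomes with at least 1000 pairs. For 1 to 10 kb the count was 22 of 24, against 87.5% of the 32. The share between 100 kb and 1 Mb was lower in hindlimb buds with an interval below 0 on 23 of 24 chromosomes (90.6% of the 32), and that between 1 and 10 Mb on 21 of 23 (86.7% of 30), where chr25 and chr28 were the exceptions. These counts depended on the pairs that made up the total: with shares taken over pairs from 20 kb upwards, the interval lay below 0 on 10 of 24 chromosomes for 100 kb to 1 Mb, where the summed log2 ratio was -0.0039, and on 15 of 23 for 1 to 10 Mb. The shares among the 24 chromosomes were thus close to those among all chromosomes of these libraries. On chr28, 32.1% of pairs lay between 10 and 100 kb in hindlimb buds and 31.3% in forelimb buds (log2 ratio 0.036, interval 0.016 to 0.057), and on chr25 they were 36.6% in hindlimb buds and 36.3% in forelimb buds (0.013, interval -0.022 to 0.047). On chr3 they were 16.9% in hindlimb buds and 16.0% in forelimb buds, with a log2 ratio of 0.078 (interval 0.072 to 0.085).

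The slope between 100 kb and 1 Mb was steeper in hindlimb buds on 23 of 23 chromosomes, as it was on 96.6% of the 29 chromosomes of the genome with a slope. The interval of the difference lay below 0 on 21 of the 23 (all but chr25 and chr28), against 89.7% of the 29, which include the 23. Outside the 23 the slope was steeper in hindlimb buds on chr1, chr2, chr4, chr7 and chrZ but not on chrW. The direction was thus not particular to the 23. The difference of hindlimb minus forelimb was -0.022 ± 0.012 (SE) on chr28, -0.034 ± 0.020 on chr25, -0.039 ± 0.005 on chr6, -0.045 ± 0.004 on chr5 and -0.037 ± 0.003 on chr3. Its median was -0.037 on microchromosomes and -0.041 on macrochromosomes, and its correlation with log10 length was near 0 (r = -0.056, rho = 0.003 over 23 chromosomes). The slope was also steeper in hindlimb buds in 80 of 80 windows of 5 Mb, with differences from -0.081 to -0.0047. The windows repeat the pairs of the same 2 libraries. They were made on the 24 chromosomes only, so whether this count is particular to them was not tested. The limb difference was small beside the spread of slopes among chromosomes within either library.

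With the pairs of each chromosome or class divided by their own total, the curves crossed at the largest distance on macrochromosomes. The distance was 200.5 kb for all microchromosomes summed, 191 kb for the intermediate chromosomes and 279 kb for macrochromosomes. By single chromosomes it ran from 25.4 kb (chr26) to 338 kb (chr3), with r = 0.82 and rho = 0.88 with log10 length over 24 chromosomes. In a sparse chromosome 1 low bin can set this first crossing. With a weighted line through the ratios from 20 kb to 1 Mb the crossing lay at 158 kb on microchromosomes (interval 147 to 169 kb), 199 kb on intermediate chromosomes (183 to 217 kb) and 246 kb on macrochromosomes (228 to 265 kb). Its range over single chromosomes was 101 kb (chr27) to 257 kb (chr3), with r = 0.90 and rho = 0.91 over 23 chromosomes (r = 0.84 without chr3 and chr5). The order of the classes depended on the total by which pairs were divided. When every chromosome was divided by the same total of pairs between the 24 chromosomes, in place of its own pairs, the lines crossed at 188 kb on microchromosomes (176 to 202 kb), 233 kb on intermediate chromosomes (214 to 254 kb) and 169 kb on macrochromosomes (157 to 181 kb), and with log10 length r was 0.50 and rho 0.67 over 23 chromosomes (r = 0.74 without chr3 and chr5).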

How the data were processed

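CHi-C was measured in 1 hindlimb and 1 forelimb library. Per the study's methods the authors trimmed adapters with cutadapt, ran HiCUP, which calls bowtie2, against the galGal5 build (cut site GATC) to map and filter the pairs, and gave each mate the middle of its restriction fragment as its position, so distances under a few kb are coarse. The protocol kept biotin on ends that had not been joined, so such fragments could enter the library. The deposited lists give these positions and a mapping quality score per mate, with no normalization. The deposited contact matrices were not used here, since they hold chr7 and chr2.

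Pairs were kept at a mapping quality of at least 30. Possible pairs were taken from chromosome length in 10 distance bins per factor of 10 from 1 kb, and slopes by least squares over 100 kb to 1 Mb on chromosomes of at least 2 Mb, with SE from Poisson counts. Single cis shares were given exact (Clopper-Pearson) bounds, which are not printed. Differences in cis share have normal-approximation bounds and ratios delta-method bounds. All are at 95%, with pairs as the draws. With 1 library per limb bud there is no test between hindlimb and forelimb buds. chr16, at 0.643 Mb, has no slope over that range. The fits were tested on simulated counts with a single slope planted in each chromosome. That test does not show how well a straight line describes a curve that bends, as the curves here did. Python 3.11.15 with numpy 2.4.6, scipy 1.17.1, pyarrow 21.0.0 and matplotlib 3.10.9 was used.

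The 24 chromosomes, size classes and measures were chosen with earlier results of these data known. Chromosomes named with values are chr3 and chr5, the longest and shortest of each class, and the 2 steepest and 2 shallowest slopes; others that are named stand at the end of a range or were named after their values were seen. Alternatives changed the mapping quality, strand, possible pairs, fit, distance range, bins, classes, lanes, totals and chromosomes left out.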

Additional observations from a re-analysis of the deposited data

How the results depend on the processing

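The median limb difference in cis share, 0.42 percentage points, depended on which pairs were counted. It was 0.020 points without pairs that have a mate in the captured region (hindlimb buds higher on 13 of 24 chromosomes), 0.18 points without cis pairs closer than 20 kb (15 of 24) and -0.028 points over pairs with both mates on the 24 chromosomes (10 of 24). Counts under these settings were made for the 24 chromosomes only. The microchromosome minus macrochromosome difference in cis share kept its sign, at -11.5 points in hindlimb buds and -11.2 in forelimb buds for a mapping quality of at least 40, -12.6 in hindlimb buds and -12.6 in forelimb buds without the captured region, -13.5 in hindlimb buds and -13.2 in forelimb buds without pairs closer than 20 kb, and -14.0 in hindlimb buds and -14.1 in forelimb buds over pairs between the 24 chromosomes. The r of slope with length was 0.58 in hindlimb buds and 0.58 in forelimb buds with possible pairs between occupied 5-kb bins, 0.81 in hindlimb buds and 0.80 in forelimb buds over 50 to 500 kb, 0.81 in hindlimb buds and 0.81 in forelimb buds over 200 kb to 2 Mb, and 0.57 in hindlimb buds and 0.56 in forelimb buds without chr3 and chr5. Chosen after seeing the data, the coverage weighting gave 0.53 in hindlimb buds and 0.53 in forelimb buds, and leaving out chr25 gave 0.87 in hindlimb buds and 0.86 in forelimb buds. The microchromosome minus macrochromosome slope (main values -0.14 in hindlimb buds and -0.14 in forelimb buds) was -0.12 in forelimb buds with occupied bins, -0.12 in hindlimb buds and -0.12 in forelimb buds by Poisson regression, -0.076 in hindlimb buds and -0.071 in forelimb buds over 50 to 500 kb, and -0.088 in hindlimb buds and -0.088 in forelimb buds with chr6, chr8 and chr9 as macrochromosomes and chr10 as a microchromosome. With shares taken over pairs from 20 kb upwards, the log2 limb ratio was 0.072 for 20 to 100 kb (0.066 for 10 to 100 kb of all pairs), -0.0039 for 100 kb to 1 Mb (-0.018), -0.037 for 1 to 10 Mb (-0.052) and -0.028 from 10 Mb upwards (-0.042), and the counts of chromosomes under that setting were added after seeing the data. The crossing, 234 kb, was 110.4 kb as the median of single chromosomes, and, chosen after seeing the data, 187 kb over 10 kb to 1 Mb alone and 201.2 kb from the fitted line. The totals used for the crossing by class were also changed after seeing the data. The cause of these shifts was not tested. No paired analysis was possible because each limb bud has 1 library. With 1 library per limb bud, differences between embryos, pools or preparations cannot be told apart from those between limb buds, and chr16 and chr25 are limited by few pairs.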
